A study of Mus musculus with 192 samples.

Results

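The CFU-E cells described here are single colony-forming unit-erythroid progenitors of the mouse fetal liver, taken at embryonic day 14.5 from strain C57/Bl6J. Mature red cells were lysed, cells bearing lineage antigens, Ter119, Sca-1, CD16/32 or CD41 were removed with magnetic beads, and single cells were sorted into wells after staining with antibodies to CD117, CD71 and CD24. The RNA was made into SmartSeq2 libraries, which cover whole polyadenylated transcripts and carry no molecular identifiers. All cells share this strain, age and plate, and none was treated. Neither the number of embryos nor the sort gates are given in the sources used here, so the plate is 1 sample, cells are not replicates, and every value is given without a test. A plate of BFU-E cells, an earlier erythroid progenitor prepared from the same tissue, age and strain, serves only for values set side by side.

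The members were chosen by 3 measured values of each cell: at least 100000 counts, at least 2000 genes, and at least 100 CPM (counts scaled to a total of 1000000) for Gata1, Klf1, Epor and Mfsd2b summed. They were 86 of the 95 CFU-E cells that could be matched to a column, and 191 cells were matched in the series as a whole. Depth removed 6 cells, the deepest of which had 94691 counts, while the shallowest member had 131891 counts. The erythroid minimum removed 3 more, at 9.03 to 15.4 CPM of the 4 genes, while the lowest members had 794 and 867 CPM. Members held 131891 to 2992101 counts (median 1011596) and 5847 to 9203 genes. Every cell was thinned at random to 100000 counts before any comparison, so that 1 count is worth 10 CPM, and 5127 to 6531 genes per cell remained. All levels are in CPM of thinned cells unless raw CPM is named, and means carry the SD over the 86 cells.

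CFU-E cells are dividing progenitors whose survival depends on erythropoietin. Within a few divisions they shut down the programme of early progenitors, switch on globin, heme and membrane genes, and become erythroblasts. Cells sorted at one moment can differ in how far they have moved along that path and in their cell cycle phase, and each has its own set of genes.

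The labelled cell type was checked against 6 markers, and each was found in all 86 cells. Car2, a carbonic anhydrase abundant in erythroid progenitors, stood at 2020 CPM in the lowest cell, 6010 in the median cell and 18390 in the highest. Cd24a, which encodes the CD24 antigen of the sort, ran from 810 through 2385 to 7440 CPM. Tfrc, which encodes the transferrin receptor CD71, also used in the sort, ran from 120 through 1325 to 3050 CPM. No cell lacked any of these 3 RNAs. Among the genes that chose the cells, Gata1, the erythroid master transcription factor, ran from 100 through 400 to 1230 CPM. Klf1, the activator of adult globin and many other erythroid genes, ran from 10 through 490 to 1090 CPM. Epor, the erythropoietin receptor, ran from 80 through 400 to 860 CPM, and Mfsd2b, a sphingosine-1-phosphate exporter of red cells, from 30 through 340 to 670 CPM. These 4 levels are a description, since their sum selected the cells.

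Markers of granulocytes, lymphocytes and macrophages were at or near 0, and a few of other lineages were found at a low level. Of 18 granulocyte and monocyte genes, 16 had no thinned count in any member, and 12 had none in the unthinned cells either, among them Mpo and Elane, which encode granule enzymes. Their sum reached 50 CPM in the highest cell, from Lyz2, which had a thinned count in 1 cell, as did Csf1r. The 20 lymphoid genes summed to 0 in the median cell and 120 CPM in the highest, and 9 of them, among them Ptprc (CD45), Rag1 and Pax5, had no thinned count. The 14 macrophage genes summed to at most 40 CPM, the 10 mast cell and basophil genes to at most 130 CPM (Il1rl1, the IL-33 receptor, had a count in 33 cells), and the 14 endothelial and stromal genes to at most 140 CPM. Of 14 megakaryocyte genes, 6 were at 0 in every cell, including the platelet chemokines Pf4 and Ppbp, but Rap1b had a count in 38 cells, Vwf in 34 and Gp9 in 24, and the sum ran from 0 through 40 to 330 CPM. Rap1b, the only one with a mean of at least 20 CPM, reached 300 CPM in its highest cell. It also reached 169 raw CPM in the cells left out by the erythroid minimum, so it was not particular to 1 lineage here. Hepatocyte genes were the exception, since Afp and Alb, the main secreted proteins of fetal liver, had counts in 62 and 57 cells. No doublet caller was run, because single cells had been sorted into the wells. Whether a well held more than 1 cell was not tested, and 3 members had both Xist and Y-linked RNA, as given further on.

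Among nuclear protein-coding genes without predicted models, ranked by mean CPM per kilobase of exonic length, the RNAs of translation and protein folding led the CFU-E cells. The ranking leaves out the mitochondrial genes, of which mt-Rnr2 (17494 CPM per kilobase), mt-Co1 (7863), mt-Nd1 (6151) and mt-Cytb (3591) would stand in it, a ribosomal RNA model, and predicted genes such as Gm10800 (11384 CPM per kilobase), Gm26917 (3631) and Gm10801 (3005). Eef1a1, which brings aminoacyl-tRNA to the ribosome, was first in it at 12669 CPM per kilobase, with 12320, 31575 and 57760 CPM in the lowest, median and highest cell. It was followed by the ribosomal proteins Rpl4 (4853 CPM per kilobase) and Rplp0 (4412), the chaperone Hspa8 (4016) and the nucleolar protein Npm1 (2807). Car2, at 2677 CPM per kilobase, was the sole erythroid gene among the 15 leading genes. The other places were taken by Hspd1, Ptma, Tuba1b, Eef2, Hsp90ab1, Tubb4b, the ADP/ATP carrier Slc25a5, Rps4x and Rps3a1, the last at 1335 CPM per kilobase. These 15 genes summed to 114588 CPM on average. Many of them, and the tandem globin genes Hba-a1 with Hba-a2 and Hbb-bs with Hbb-bt, have near-identical copies elsewhere in the genome, so reads may have been split or lost between copies, and their levels are uncertain to that extent.

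The question that single cells answer and pooled cells cannot is which genes differ from cell to cell. Variation was measured as the squared coefficient of variation (CV squared, the variance divided by the squared mean), and each gene was set against the running median of the genes nearest in level. Of 5398 genes with a mean of at least 20 CPM, 304 (5.63%) had a CV squared at least 2-fold that median, and these are called variable below. CV squared fell with level for all genes, from a median of 1.60 among the 2194 genes at 20 to 50 CPM to 0.112 among the 109 genes at 1000 CPM or more. Above about that level the comparison is with 1 fixed group of the highest genes. Of the 304 variable genes, 292 were protein-coding and 139 lay under 50 CPM. With odd-numbered and even-numbered cells taken apart (43 cells each), 140 of the 304 stood 2-fold above the median in both sets. The 304 were called on these same cells, so the 140 are a description and not an independent check. Cell numbers follow the order of the sequencing indices, so the 2 sets share no i5 index. In all odd and even values given here, a difference between the sets cannot be told apart from one of that index.

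**Figure D1:**
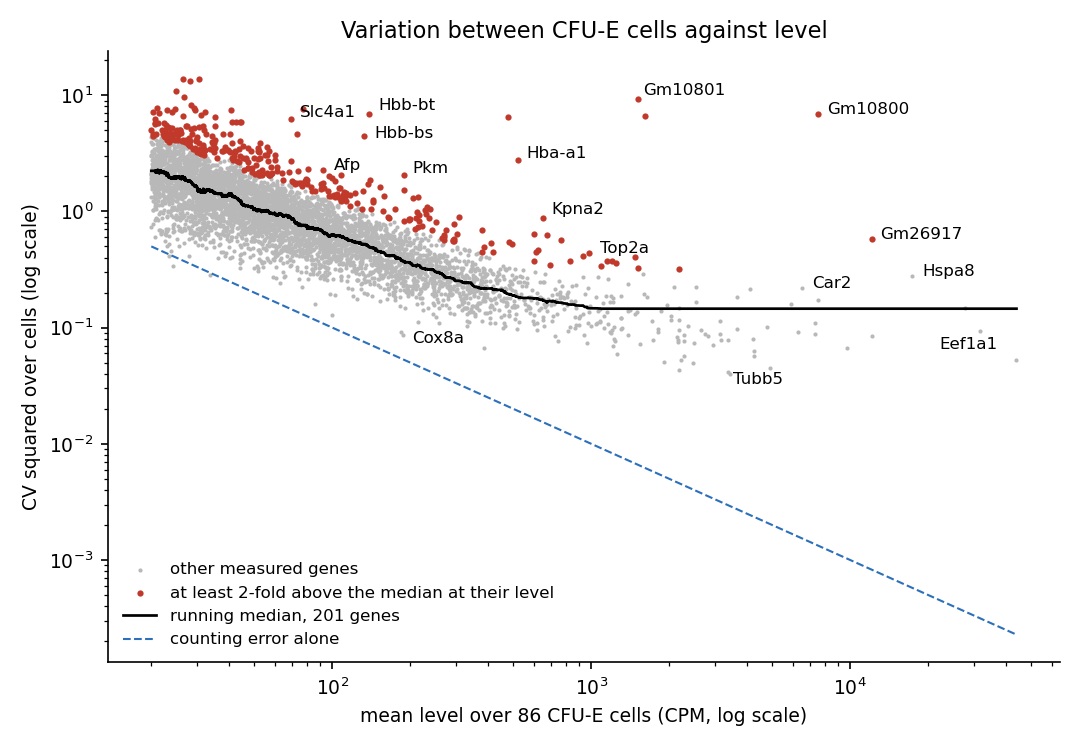
CV squared over 86 CFU-E cells (y axis, log scale) against mean level in CPM (x axis, log scale), 1 point per gene for 5398 genes. Red points are the 304 genes at least 2-fold above the running median (black line), and the dashed line is counting error alone; Hba-a1, Hbb-bt, Hbb-bs and Slc4a1 stand far above the line, whereas Tubb5 and Cox8a lie under it.

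Alpha- and beta-globin RNA led the variation of the plate among genes with a name, through Hba-a1 and Hbb-bt. Hba-a1, the adult alpha-globin gene (chr11:32283511-32284465, GRCm38), was found in 85 cells, at 0 CPM in the lowest, 260 in the median cell and 6480 in the highest, and 10 cells had 1000 CPM or more. Its mean was 519.7 ± 864 CPM, and its CV squared was 15.03-fold that of genes at its level. Hbb-bt, an adult beta-globin gene (chr7:103812524-103813996), ran from 0 through 20 to 2360 CPM and was found in 56 cells, with a CV squared 13.9-fold the median. Hbb-bs, the neighbouring beta-globin gene (chr7:103826534-103828096), ran from 0 through 20 to 1850 CPM, also in 56 cells, at 8.55-fold. Globin RNA was concentrated in few cells: the 9 highest cells held 48.3% of the Hba-a1 counts, 72.8% of the Hbb-bt counts and 60.7% of the Hbb-bs counts, where the median over all 5398 genes was 31.1%. In the BFU-E cells that passed the same selection the means were 3.57, 0.536 and 4.11 CPM.

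The 3 globins varied together. Spearman's rho over the 86 cells was 0.710 between Hba-a1 and Hbb-bt, 0.638 between Hba-a1 and Hbb-bs, and 0.643 between Hbb-bt and Hbb-bs. Over all pairs of the 5398 genes the median rho was 0.0076, with 0.597% of pairs at 0.3 or more and 0.36% at -0.3 or less. These and all correlations given here are descriptions over cells of 1 plate, which share the sort, the library preparation and an equal total, so that a large RNA can push others down. Reads shared between the near-identical Hbb copies could also tie their values, which was not tested.

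A grouping of the 607 genes at 50 CPM or more whose CV squared stood at least 0.5 log2 units above the median put Hba-a1 in a module of 20 genes, with a median rho of 0.348 within it. Modules were formed from the values, so their internal correlations carry no test. The members besides the globins included Slc4a1, Rhd, Hemgn, Car2, Cd24a, Tmem14c, Ppox, Tmod1, Ftl1 and the erythroid long non-coding RNA Redrum. The rest were Acp5, Ube2l6, Gmpr, Pigq and Tmx1, with Cdc25b, listed among G2 and M genes, and Rrm1, listed among S phase genes. Slc4a1, the band 3 anion exchanger of the red cell membrane, ran from 0 through 10 to 1260 CPM in 47 cells, with a CV squared 7.08-fold the median and a rho of 0.663 to Hba-a1. Rhd, the Rhesus antigen, ran from 90 through 605 to 2080 CPM at 2.04-fold, and Hemgn, a nuclear protein of erythroid cells, from 70 through 490 to 1620 CPM at 2.12-fold. These 2 were present in every cell but spread widely, unlike Slc4a1, which was missing from many. Cd24a and Car2, both in every cell, were 1.55-fold and 1.51-fold, under the 2-fold mark, and followed Hba-a1 at rho 0.635 and 0.501. Ftl1, the ferritin light chain, ran from 580 through 1230 to 7540 CPM at 2.79-fold, but its log2 value of 1.48 became 0.86 without the highest cell and 0.20 in the even-numbered cells.

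**Figure D2:**
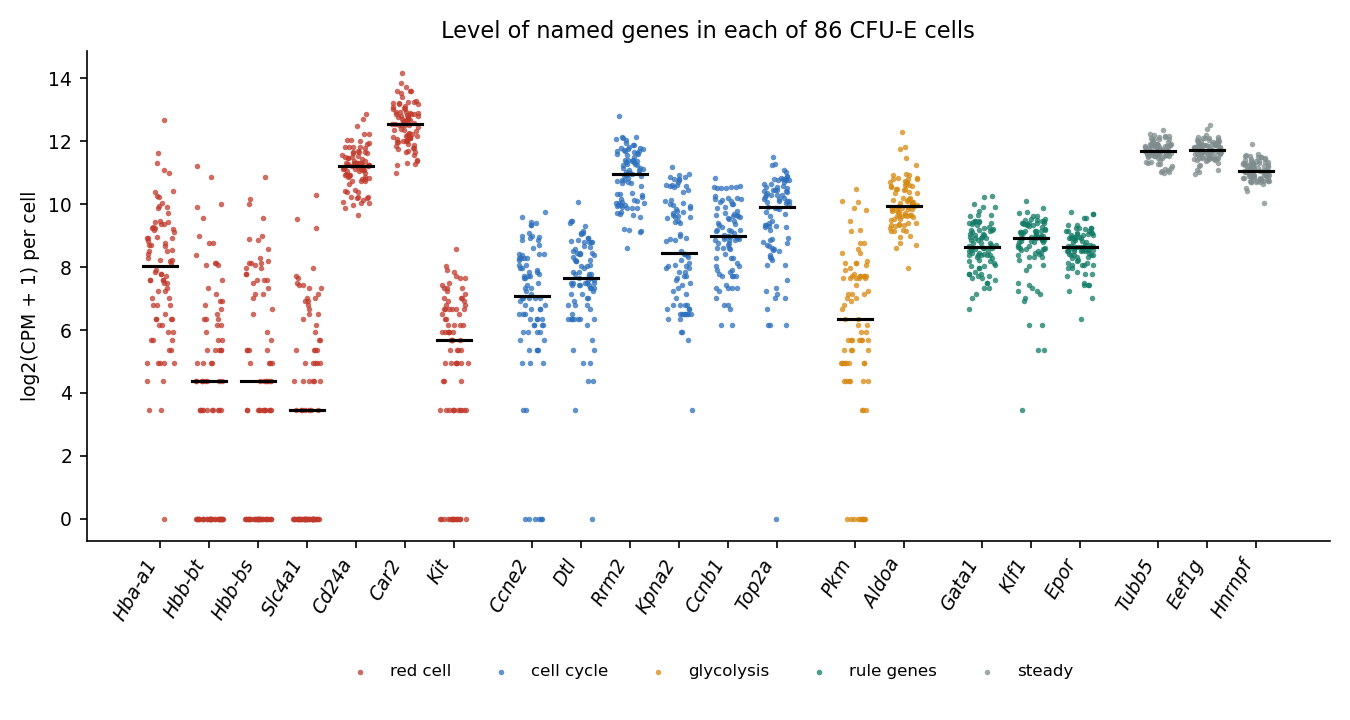
Level of 21 genes as log2(CPM + 1) in each of 86 CFU-E cells (1 point per cell), coloured by group, with a black bar at the median. Hba-a1, Hbb-bt, Hbb-bs and Slc4a1 spread from 0 to over 1000 CPM, Car2 and Cd24a stay high in all cells, and Tubb5, Eef1g and Hnrnpf form narrow bands.

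For the score of a module or list, the mean log2(CPM + 1) of its members was taken in each cell. The Hba-a1 module score was -0.54 in rho against the list of stem and early progenitor genes, of which 4 of 23 were at 20 CPM or more. These were Cd44, Itga4, Myb and Kit, with a median pairwise rho of 0.083, and Kit alone stood at -0.578 to the score. One of them, Kit, which encodes the stem cell factor receptor CD117 used in the sort, ran from 0 through 50 to 380 CPM and had a rho of -0.587 to Hba-a1. Cells high in globin thus tended to be low in Kit, although Kit itself was spread only 1.29-fold the median at its level. Cdk6, a cyclin-dependent kinase of early progenitors, ran from 0 through 155 to 490 CPM and had a rho of -0.57 to the module score. The score was also at -0.58 against the list of ribosome assembly genes and MYC, and at -0.41 against heat shock and chaperone genes. Genes outside the module that followed its score closely included Slc25a37 (rho 0.60), the mitochondrial iron importer, and Fech (0.59), the enzyme that puts iron into heme. With the globins alone as a score, which shares no gene with either list, rho was 0.68 to the heme list and 0.74 to the red cell membrane list. Depth differed little along the module score, at rho -0.16 to the total count, although this was 0.03 in odd-numbered and -0.39 in even-numbered cells.

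Variation was uneven across the erythroid lists. Of 12 measured mature erythroblast markers, 6 were called variable (Hba-a1, Hbb-bt, Hbb-bs, Slc4a1, Ube2l6 and Tmcc2), beside 5.63% of all genes, with a median of 0.98 log2 units above the level's median and 43.9% of pairs at rho 0.3 or more. Several of these markers are also among the genes named above for their variation. None of 21 measured erythroid transcription factors was called variable, where the 5.63% of all genes would give about 1. Their median pairwise rho was 0.050, and the one of largest excess, Gfi1b, ran from 20 through 240 to 990 CPM at 1.54-fold. Gata1 and Klf1 were at 1.34-fold and 1.1-fold, with a rho of 0.150 between them. Of 14 measured heme synthesis genes, 1 was called (7.14%, near the share of all genes), Abcb10, a mitochondrial transporter, which ran from 0 through 120 to 1100 CPM at 3.80-fold but grouped with the Serbp1 module described further on. The heme genes' median pairwise rho was 0.166, with 23.1% of pairs at 0.3 or more. Of 27 measured red cell membrane genes, Rhd and Slc4a1 were called (7.41%), the list's median was 0.27 log2 units, and 16.8% of pairs reached 0.3. Of 14 genes of iron uptake and storage, Ftl1 was called (7.14%). The shares of these last 2 lists are also near that of all genes.

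Promoter sequences are shown for the modules whose members moved together, from RefSeq windows of 250 bases before to 50 after each gene's start on GRCm38.p6. For the Hba-a1 module, 16 of 20 members had a window. The letters CCACCC, a core that KLF factors read, were found on either strand in 7 of them (43.75%), against 30.9% of 27025 promoters. The share was 42.9% in the Ccnb1 module and 60% in the Dtl module described further on. The letters AGATAA, a motif of GATA factors, were found in 4 (25%), against 11.4%. A match is a description of letters and not of a bound site. The 30-base stretches below, read 5′ to 3′ along the gene, have the match in capitals, and lie at chr11:32283599-32283628 (plus strand), chr7:103814047-103814076 (minus strand) and chr4:134864481-134864510 (plus strand). The Hba-a1 stretch lies before the RefSeq start but inside the gene position given above, which is from GENCODE and begins further upstream.
Hba-a1: ccaagggcgtgtCCACCCtgcctggaggac
Hbb-bt: cctgggccatagCCACCCtgtgtagatatg
Rhd: cccggcagcctgAGATAAgacctttggcgg

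The cell cycle gave the next 2 sets of genes. A module of 17 genes, with a median rho of 0.418 within it, held mitotic genes such as Ccnb1, Kpna2, Ube2c, Prc1, Top2a, Cdc20, Plk1, Nusap1, Ccnf, Kif23 and Hmmr. Ccnb1, the cyclin that drives entry into mitosis, ran from 70 through 505 to 1810 CPM, with a mean of 622 ± 423 CPM and a CV squared 2.59-fold the median. Kpna2, a nuclear importin, ran from 10 through 350 to 2330 CPM at 5.13-fold, and Ube2c, the ubiquitin-conjugating enzyme of the anaphase-promoting complex, from 0 through 200 to 840 CPM at 2.54-fold. All 3 ran from near absence to a high level, and Ccnb1 followed Ube2c at rho 0.796 and Kpna2 at 0.748. Top2a, the DNA topoisomerase of replication and chromosome condensation, ran from 0 through 955 to 2870 CPM at 3.0-fold. Prc1, which bundles spindle microtubules, ran from 0 through 165 to 870 CPM at 2.31-fold, and Plk1, a mitotic kinase, from 0 through 260 to 920 CPM at 1.90-fold.

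The letters TTTGAA, the cell cycle genes homology region of late cell cycle promoters, were found on either strand in 9 of the 14 members of this module that had a RefSeq window (64.3%), against 18.1% of 27025 promoters. The CCAAT box was found in 11 of the 14 (78.6%), against 37.9%. The stretches of 30 bases that follow are from all members with a TTTGAA match before the start, within 50 bases of it in each. The match (on either strand) is in capitals. In Prc1, Plk1, Kif23 and Hmmr the letters lie only at or after the start, and Ccnb1 had a window but no match. On GRCm38.p6 they lie at chr2:164769888-164769917 (plus strand), chr4:118437344-118437373 (minus), chr11:99024195-99024224 (minus), chr11:106999543-106999572 (minus) and chr17:24251410-24251439 (minus).
Ube2c: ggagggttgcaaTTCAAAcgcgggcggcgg
Cdc20: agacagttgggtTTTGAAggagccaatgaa
Top2a: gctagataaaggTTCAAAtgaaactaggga
Kpna2: cctaacgtgtttTTCAAAcctaccaatgaa
Ccnf: aggagctcccggcgcgTTTGAAaacggggc

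A module of 6 genes, with a median rho of 0.414, held Dtl, Rrm2, Ccne2, Hells, Cdc6 and Uhrf1, genes of the start of DNA replication. Ccne2, a cyclin of the passage from G1 to S, ran from 0 through 135 to 860 CPM, with a CV squared 2.59-fold the median. Dtl, the substrate receptor that marks replication licensing proteins for destruction, ran from 0 through 200 to 1070 CPM at 1.89-fold. Rrm2, the small subunit of ribonucleotide reductase, ran from 390 through 2010 to 7200 CPM at 2.18-fold. Dtl followed Ccne2 at rho 0.637 and Rrm2 at 0.553. The E2F letters TTTCCCGC or TTTGGCGC were found on either strand in 3 of the 5 members with a RefSeq window (60%), against 1.63% of promoters. These matches, in capitals, lie at chr1:191575545-191575574 (minus), chr11:98908002-98908031 (plus) and chr19:38930917-38930946 (plus).
Dtl: caatcagaaagcgtgacgtcagTTTGGCGC
Cdc6: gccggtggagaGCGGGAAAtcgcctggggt
Hells: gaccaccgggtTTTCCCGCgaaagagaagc

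The mitotic and the replication genes ran opposite to each other. Ccnb1 had a rho of -0.534 to Ccne2 and -0.427 to Dtl, and the scores of the 2 modules had a rho of -0.63. The same was seen with the lists, where the score of G2 and M genes against that of G1 to S genes was at -0.62. Of the 51 measured G2 and M genes, 7 were called variable (Ccnb1, Nusap1, Ube2c, Ccna2, Racgap1, Prc1 and Ccnf), which is 13.7% beside 5.63% of all genes. Ccna2 and Racgap1 fell in the index-linked Serbp1 module described further on. In this list 19.5% of pairs reached rho 0.3, with a median of 0.151. Of 27 G1 to S genes, 3 were called (Ccne1, Ccne2 and Gins3; 11.1%), with 11.7% of pairs, and of 30 S phase genes 3 (Brip1, Top2a and Rrm2; 10%), with 4.6% of pairs. The Hba-a1 module score had a rho of 0.20 to the mitotic module and -0.05 to the replication module. That module itself holds Cdc25b of the G2 and M list and Rrm1 of the S phase list. The number of genes found in a thinned cell moved with the G2 and M score, at rho 0.45, and against the Dtl module score, at -0.38.

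**Figure D3:**
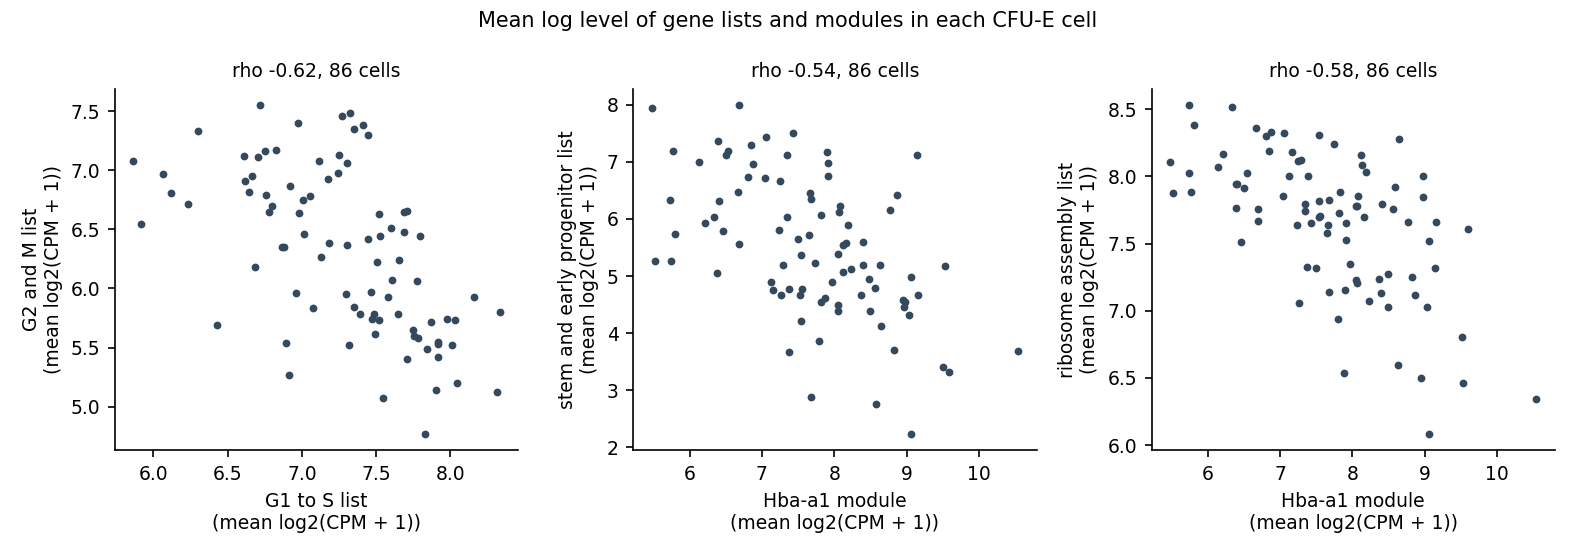
Mean log2(CPM + 1) of gene lists and modules in each of 86 CFU-E cells (1 point per cell): G2 and M against G1 to S genes, and the stem and early progenitor list and the ribosome assembly list against the Hba-a1 module. All 3 clouds slope down, at rho -0.62, -0.54 and -0.58.

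Glycolysis split into genes that varied and genes that did not. Pkm, the pyruvate kinase of dividing cells, ran from 0 through 80 to 1430 CPM, with a mean of 189 ± 270 CPM, a CV squared 5.47-fold the median and 47.4% of its counts in the 9 highest cells. Pklr, the pyruvate kinase of red cells and liver, ran from 40 through 275 to 880 CPM at 0.939-fold, and its rho to Pkm was -0.188. Every cell thus had Pklr, while Pkm was concentrated in some. Aldoa, the aldolase, ran from 250 through 990 to 5040 CPM at 2.59-fold, and Eno1, the enolase, from 250 through 860 to 2860 CPM at 1.75-fold, although Eno1 stood at -0.13 log2 units in the even-numbered cells. Pkm followed Aldoa at rho 0.50 and Eno1 at 0.388, and these 3 formed a module with the lactate exporter Slc16a3 and the phosphatase subunit Ppp2r1b. Ldha, lactate dehydrogenase, outside the module, followed its score at 0.52, Gapdh at 0.48 and Gpi1 at 0.43. Of 18 measured glycolysis genes, Pkm, Pdk1 and Aldoa were called variable (16.7%, beside 5.63% of all genes), although Pdk1 fell in the index-linked Serbp1 module, with an index share of 0.42, and stood at 0.67 log2 units in the odd-numbered cells. Gapdh, at 0.657-fold, was the least variable. The Aldoa module score had a rho of -0.29 to the Hba-a1 module score.

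The largest module, of 81 genes, followed the sequencing index of the well. Its leading gene was Serbp1, an mRNA-binding protein, which ran from 100 through 480 to 1870 CPM at 2.50-fold, and it also held Minpp1, an inositol phosphate phosphatase (0 through 710 to 2090 CPM, 3.44-fold), the chaperone Hspa4 (0 through 220 to 1420 CPM, 3.53-fold), the zinc importer Slc39a8 (0 through 130 to 1130 CPM, 3.79-fold), and Abcb10, Ccne1 and Ccna2. The plate used 12 i7 and 8 i5 indices, and their additive effects accounted for a share of 0.887 of the variance of the module score, adjusted for the number of indices. For Serbp1 itself the share was 0.76, where the median over all 5398 genes was 0.016. The cell of the BFU-E plate with the same index pair had a like score for these 81 genes, at rho 0.687 over 84 pairs, although it held another cell of another type. With the index means removed, the median rho within the module went from 0.379 to 0.0422, and Serbp1 with Phb2 from 0.774 to 0.095. What in the index or the well moves with these genes was not tested.

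**Figure D4:**
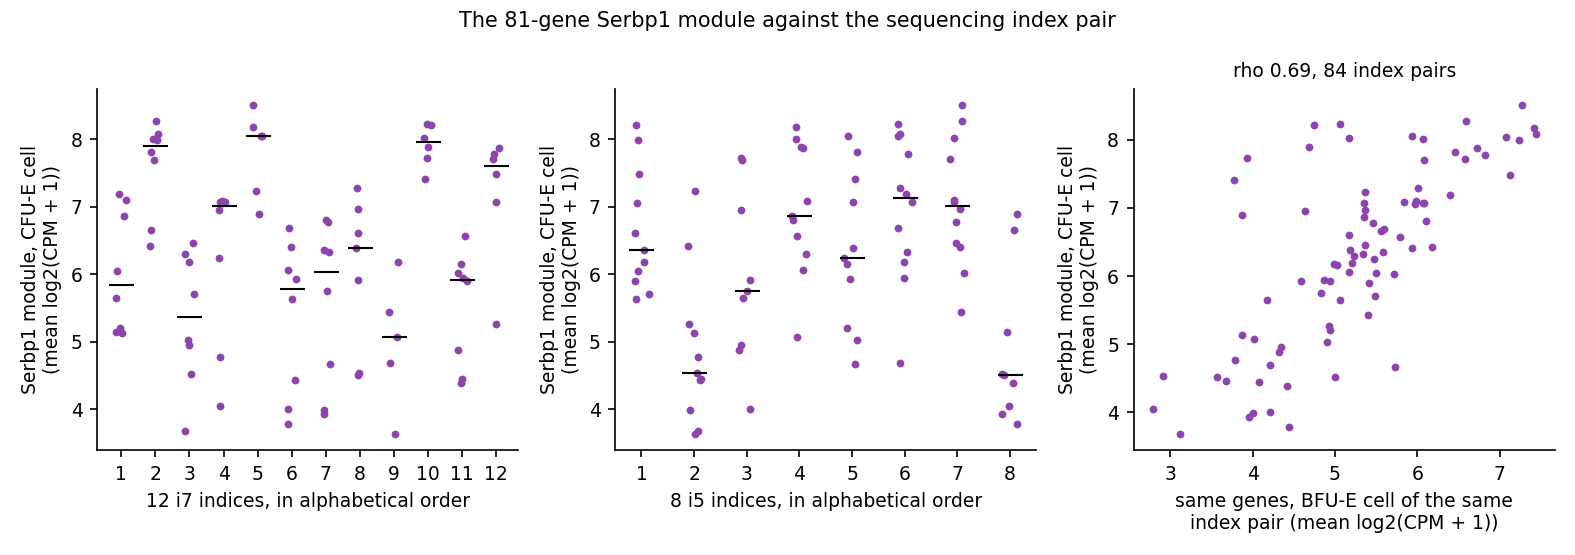
Score of the 81-gene Serbp1 module (mean log2(CPM + 1)) in CFU-E cells, by i7 index, by i5 index, and against the score of the same genes in the BFU-E cell with the same index pair. The points of each index form bands, and the right panel shows rho 0.69 over 84 index pairs.

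The red cell, cell cycle and glycolysis modules changed less when index means were removed. In that case, the median rho was 0.365 in the Hba-a1 module (0.348 before), 0.357 in the Ccnb1 module, 0.347 in the Dtl module and 0.376 in the Aldoa module, and the G2 and M score stood at -0.57 to the G1 to S score. The levels of 2 cyclins went with the index. Ccne1, which ran from 10 through 485 to 2170 CPM at 3.60-fold, had an index share of 0.53. Ccna2, which ran from 0 through 1285 to 3360 CPM at 2.48-fold, had one of 0.40. Ccne1 followed Serbp1 at rho 0.734 (0.221 with index means removed) and its relative Ccne2 at 0.30. Klf1 had an index share of 0.47, and its rho to Serbp1 went from 0.397 to -0.003. In all, 106 of 5398 genes had an index share of at least 0.3, and 25 of the 304 variable genes were among them. A module of 7 genes, with Ubb, Ppia, H2afz, Rpl7a and mt-Cytb among them, ran opposite to the Serbp1 module at rho -0.68, which was -0.08 with index means removed. The Cul4a, Mat2b and Pafah1b2 modules, of 5 genes each, had a median rho of 0.368, 0.292 and 0.298.

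Some genes owed much of their variation to 1 cell. Dcaf10, a substrate receptor of ubiquitin ligases, had 37.9% of its counts in 1 cell, at 920 CPM where the second highest cell had 180, and its log2 value of 2.87 above the median became 1.04 without that cell. Specc1l, a cytoskeletal protein, had 38.2% in 1 cell, at 870 CPM against 170, and its value of 2.79 became 1.20. D3Ertd254e had 37.4% in 1 cell, at 980 CPM against 210, and its value of 3.21 became 2.13. All 3 thus stayed at least 2-fold above the median without that cell. None of the 304 genes had most of its counts in 1 cell, and 226 stayed 2-fold above the median without their highest cell. Gclm, a subunit of the enzyme that makes glutathione, at 2.25-fold, did not, at -0.05 log2 units without its highest cell. No single cell dominated: the cell that was highest for the most variable genes led 17 of them, and 13 cells led none.

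Single stress and growth genes were among the variable ones. Myc, the growth-promoting transcription factor, ran from 0 through 225 to 1380 CPM at 2.96-fold, and Ccng1, a p53 target, from 0 through 315 to 1500 CPM at 3.21-fold, the only one of 6 measured p53 targets called. Hspa5, the chaperone of the endoplasmic reticulum, ran from 130 through 710 to 2730 CPM at 2.38-fold. Scd2, a fatty acid desaturase, ran from 50 through 585 to 3790 CPM at 3.76-fold, and followed the fatty acid synthase Fasn at rho 0.408. Gpsm2, which orients the mitotic spindle, ran from 0 through 115 to 1010 CPM at 4.10-fold. The 12 measured heat shock genes had a median pairwise rho of 0.110, with 12.1% of pairs at 0.3 or more, and the 27 of ribosome assembly and MYC 0.140, with 9.4%. No gene of the ATF4 list (11 measured), the BCL2 and autophagy list (16) or the interferon list (3) was called, but with 5.63% of all genes called, lists of this size would hold under 1, so the counts say nothing about these genes.

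The steadiest RNAs for their level belonged to housekeeping functions. Level here is CPM, and transcript length was not part of the comparison. With exonic length added to it, 23 named genes shifted by at least 0.5 log2 units and 158 did not. Cox8a, a subunit of cytochrome c oxidase, ran from 30 through 180 to 330 CPM, with a mean of 184 ± 55.9 CPM and a CV squared 0.241-fold the median at its level. Eef1g, an elongation factor subunit, ran from 2010 through 3355 to 5810 CPM at 0.276-fold, and Tubb5, a beta-tubulin, from 2020 through 3275 to 5270 CPM at 0.283-fold. The highest cell thus had under 3 times the lowest for Tubb5 and Eef1g. Both were set against the fixed group of the highest genes, so their fold values are not matched for level. None of 72 measured ribosomal protein genes was called variable, beside 5.63% of all genes, and their median log2 value was -0.69, yet they moved together, with a median rho of 0.272 and 42.8% of pairs at 0.3 or more. None of 27 nuclear genes of the respiratory chain was called either, at a median of -0.83. The medians of the ribosomal protein and respiratory chain lists were not computed with exonic length added. The 9 measured mitochondrially encoded genes had a median rho of 0.252 and their score ran opposite to the Serbp1 module, at -0.57. Part of this variation went with the index, since the index share was 0.394 for the ribosomal protein score and 0.325 for the mitochondrially encoded score. With index means removed, the median rho was 0.218 and 0.197 in these lists.

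Afp and Alb were called variable in the CFU-E cells. Afp ran from 0 through 45 to 980 CPM, with a mean of 92 ± 139 CPM and a CV squared 3.46-fold the median. Alb ran from 0 through 20 to 600 CPM at 3.18-fold, and the rho between them was 0.251. Their means in the BFU-E cells were 91.1 and 90.9 CPM. Other liver genes had means of 4.53 CPM (Apoa1) and 1.40 CPM (Ttr), and the sum of the 13 hepatocyte genes ran from 0 through 110 to 1910 CPM. The rho of Afp to the Hba-a1 module score was 0.07.

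The 5 predicted genes Gm10800, Gm10801, Gm21738, Gm26870 and Gm10718 were among the 7 most variable of all, and the first 4 named were the highest. Gm10800 ran from 0 through 1795 to 169740 CPM, with a CV squared 46.9-fold the median. Together the 5 took 0.315% of counts in the median cell, 6.35% in the second highest and 26% in the highest, and 3 cells were over 5%. They fell in the Serbp1 module. Without that highest cell 304 genes were again called variable, 293 of them shared. Whether these gene models overlap repeated sequence is not given in the sources used here, so their counts may hold reads from several places in the genome. Gm26917, on chromosome 17, was abundant, from 70 through 12715 to 57860 CPM at 3.97-fold.

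Sex-linked RNA divided the cells. Xist, the RNA of the inactive X chromosome, reached the 10 raw CPM taken as presence without Y-linked RNA in 44 cells, at 18.6 to 487 raw CPM (median 167). The Y-linked genes Ddx3y, Eif2s3y, Kdm5d and Uty summed to at least 10 raw CPM without Xist in 38 cells, at 12.3 to 539 raw CPM (median 209). Both were present in 3 cells, at 12.9 to 57.9 raw CPM of Xist and 33.9 to 491 of the Y-linked sum, and 1 cell had neither at that level. The plate thus held cells of both sexes, and the 2 called Y-linked genes (Ddx3y and Uty) and Xist, at 2.50-fold, are among the 304. Without the 3 cells with both, 316 genes were called.

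**Figure D5:**
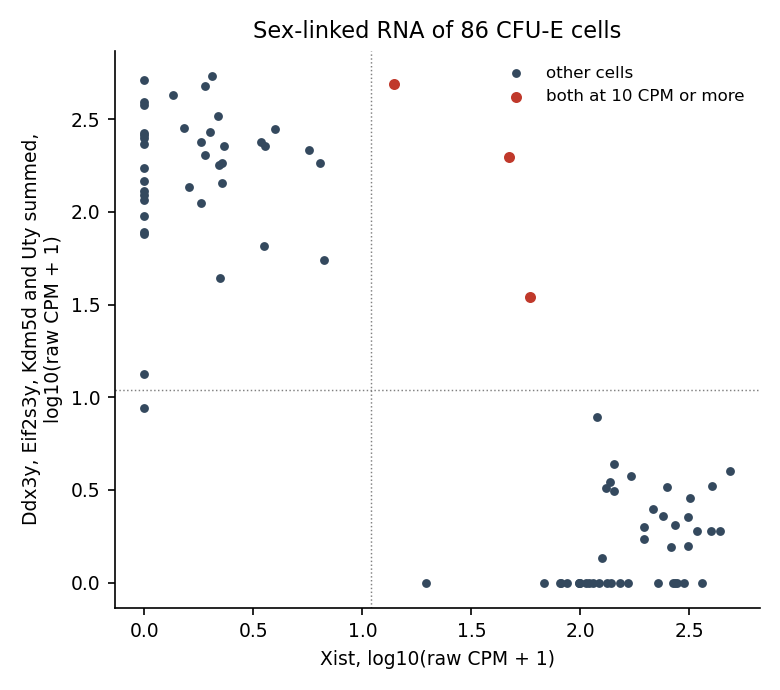
Summed Y-linked RNA (Ddx3y, Eif2s3y, Kdm5d and Uty) against Xist in 86 CFU-E cells, each as log10(raw CPM + 1). The cells form 2 arms, 44 with Xist only and 38 with Y-linked RNA only, with 3 cells holding both and 1 with neither.

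The variable genes were set beside those of the BFU-E plate by the same measure. Of 5136 genes measured in both, 267 were called variable in the CFU-E cells and 241 in the 56 BFU-E cells passing the selection. Of the 267, 48 (18%) were also called in the BFU-E cells, beside 241 of all 5136 genes. These 48 were 19.9% of the 241, beside 267 of all 5136 genes called in the CFU-E cells. The difference between the cell types was not tested, since each is 1 plate and 1 sequencing lane, so that plate, lane and cell type cannot be told apart.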

How the data were processed

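The authors deposited raw counts of reads per gene for single cells, aligned with STAR 2.4 and counted with featureCounts on GRCm38, per the submitters' processing notes. The handling of strand and multi-mapped reads is not given in the sources used here. No identifiers mark molecules, and PCR reads are not independent molecules. Each CFU-E cell was 1 column, matched by its index pair, and 1 column of per-cell values was not used. Here, counts were thinned to 100000 per cell (seed 1), and CV squared, Spearman's rho, average-linkage modules (1 minus rho, height 0.75, at least 5 genes) and index shares were computed in Python 3.11.15 with numpy 2.4.6, pandas 2.3.3 and scipy 1.17.1, with plots by matplotlib 3.10.9, after being tested on simulated data. The members and 36 gene lists were chosen with earlier results of these data known. Named genes are the 15 most abundant, the 24 most variable, the extremes of each list, the 6 leading genes of each module, and the markers. Others were chosen after their values were seen. Positions and exonic lengths came from the GENCODE M21 annotation. Some genes are not reported here, and of the listed symbols, 2 were not analysed here. Alternatives were other thinnings, scalings, cell filters and measures.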

Additional observations from a re-analysis of the deposited data

Results flagged for a closer look

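The 3 cells of the CFU-E plate left out by the erythroid minimum held RNA that the report's comparisons do not use. Coro1a, an actin regulator of leukocytes, ran from 626 to 1124 raw CPM in them. Ebf1, a B cell transcription factor, was at 582 raw CPM or more in each. The 20 lymphoid genes of the members summed to at most 120 CPM.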

How the results depend on the processing

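No paired analysis was possible because no result comes from a test and the cells of 1 plate carry no shared replicate. The 304 variable genes became 165 of 3204 with a minimum of 50 CPM, and 302 to 429 under the other thinnings, scalings and cell filters. They became 253 without each gene's highest cell, and 314 by the variance of logs, of which 104 were shared. The genes called also changed where the total did not. Of the 304, 234 were called again in another random thinning (seed 2), 250 at 200000 counts and 251 with exonic length added. With median-of-ratios scaling 257 were called again, and in raw CPM 278. The count was 205 in odd-numbered cells, 232 in even-numbered cells and 237 without the erythroid minimum. The globins' median rho of 0.643 was 0.765 in raw CPM and with median-of-ratios scaling, 0.741 at 200000 counts, 0.520 in odd-numbered and 0.731 in even-numbered cells. A tree closed at 0.80 gave 17 modules. The odd-numbered and even-numbered cells share no i5 index. In these sets the median rho was 0.319 and 0.433 in the Serbp1 module, 0.233 and 0.350 in the Mat2b module and 0.188 and 0.460 in the Pafah1b2 module, while it was 0.465 in odd-numbered cells for Dtl, and in even-numbered cells 0.318 for Aldoa and 0.425 for Cul4a. With index means removed, chosen after seeing the data, it was 0.0422 for Serbp1, 0.357 for Ccnb1, 0.231 for Ubb, 0.347 for Dtl and 0.267 for Cul4a. Of 971 values of the 71 named variable genes under these alternatives, 913 stayed at least 2-fold above the median. The variance of logs and the removal of index means are not among these values. Many of the 71 were named for their large variation, which favours a high share. Gclm turned below the median of its level, to -0.71 in even-numbered cells and -0.048 without its highest cell; the cause was not tested in the first case. A mean of 20 CPM is 2 counts per thinned cell, which limits the lowest genes.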
